A study of Mus musculus with 2 samples.

Results

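The genes for proteins that bind and protect the poly(A) tail were followed in embryonic stem cells (ESCs) of the mouse and in cells that 48 h of differentiation had made epiblast-like (48h-EpiLCs, EpiLCs below), in wild-type (WT) and Cnot8 knockout (KO) lines. There were 9 such genes among the 32286 features of the count tables: Pabpc1, Pabpc4, Pabpn1, Paip1, Paip2, Larp1, Larp4, Larp4b and Eif4g1. They were chosen by symbol for the known function of their proteins and not by their values, though earlier results of these data were known. Transcripts had been sequenced from single cells (scRNA-seq) in 2 libraries, 1 per stage, and each was a mixture of equal numbers of WT and KO cells. Each value below comes from a single library with no replicate, so that no difference has a replicate check, no test was run, and a stage cannot be told apart from its library. The strain label of both libraries was ICR. The ESC library (0 h) came from cells grown in serum/LIF medium on feeder cells. The 48h-EpiLC library came from cells grown on Matrigel in N2B27 medium with activin A, bFGF and KSR. By the methods of the study, EpiLCs were induced from ESCs kept in 2i/LIF medium, so that the medium before the harvest differed too. ROSA mT/mG, the reporter of the WT cells, gives them tdTomato transcripts. The KO line was derived from blastocysts of Cnot8 heterozygote matings, after CRISPR with a guide to exon 2 in zygotes, and was picked as a single colony. The genotype tag reads wild type for both libraries, whereas their titles name both lines, and the line of a cell was therefore read from its transcripts.

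Poly(A)-binding proteins coat the tail of an mRNA. In the cytoplasm, Pabpc1 on the tail holds the scaffold protein Eif4g1, which sits with the cap-binding protein Eif4e at the other end of the message, and this closed loop favours translation. Deadenylases of the Ccr4-Not complex, among them Cnot8, shorten the tail and so remove the sites to which these proteins bind. When pluripotent cells leave the naïve state, many existing mRNAs are removed, and the state of their tails is one point at which this is controlled.

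RNA molecules were counted as unique molecular identifiers (UMIs), 1 for each captured molecule. Cells were used where at least 1000 genes had been detected and no more than 10% of UMIs were mitochondrial, which left 11054 of 13184 barcodes in the ESC library and 9400 of 12427 in the 48h-EpiLC library. A cell was WT-annotated when it held at least 1 tdTomato UMI and 0 UMIs of the 4 Y-linked genes Ddx3y, Eif2s3y, Kdm5d and Uty. It was KO-annotated when it held no tdTomato UMI and at least 2 UMIs summed over the Y-linked genes. This gave 435 WT-annotated ESCs with 6154790 UMIs in all and 2978 KO-annotated ESCs with 44110356 UMIs. The 48h-EpiLC classes held 368 and 2977 cells, with 6219834 and 59291903 UMIs. The other 7641 and 6055 cells held too few of these UMIs, or both kinds, and were in neither class. The median depth was 13151 and 13368 UMIs per cell in the WT- and KO-annotated ESCs, and 15598 and 17628 in the EpiLCs. The 2 libraries shared 41 barcode sequences, 26 of them among the kept cells. In each library 35 kept cells held both tdTomato and at least 2 Y-linked UMIs, with median depths of 23516 and 27525 UMIs, and these cells were in neither class. The 2 lines differ in their sex chromosomes and derivation as well as in Cnot8, and these cannot be told apart. Cnot8 itself gave 43.1 and 72.1 UMIs per 1000000 UMIs (CPM) in WT- and KO-annotated ESCs and 49.7 and 62.6 CPM in EpiLCs. Since the guide cuts in exon 2 and the reads come from 3′ ends of transcripts, this level is no check of the knockout, and the lines stay an annotation by transcripts. The classes are called WT and KO cells below in that sense.

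The markers of the stages went with the labels. The sum of 6 naïve markers (Nanog, Zfp42, Klf2, Klf4, Esrrb, Tfcp2l1) was 1026 and 1314 CPM in the WT and KO ESCs and 116 and 231 CPM in the EpiLCs. Between the lines these 6 did not move together. Nanog (84.5 and 56.1 CPM in ESCs, 27.5 and 17.2 CPM in EpiLCs) was lower in KO cells. Klf4 (155 and 92.0 CPM, 8.52 and 4.94 CPM) was lower too. The others were higher at both stages, Zfp42 with 304 and 603 CPM in ESCs. The sum of 4 formative markers (Fgf5, Otx2, Pou3f1, Dnmt3b) was 310 and 351 CPM in ESCs and 1109 and 954 CPM in EpiLCs. In KO ESCs Fgf5 (2.76 and 1.29 CPM in WT and KO) and Otx2 (19.2 and 12.4 CPM) were lower, and Pou3f1 and Dnmt3b were higher. All 4 were lower in KO than in WT EpiLCs. The 7 feeder fibroblast markers summed to 10.2 CPM in WT and 35.8 CPM in KO ESCs, with 3 of the 7 (Col1a1, Col1a2, Thy1) at 5 CPM or more in the latter, and to 6.91 and 10.7 CPM in EpiLCs. The 7 primitive endoderm markers summed to 21.9 and 36.0 CPM in ESCs and to 4.50 and 5.53 CPM in EpiLCs.

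On GRCm38, the build of mm10, 8 of the 9 genes lie as follows by the GENCODE M21 annotation. Pabpc1 lies at chr15:36595661-36609668 on the minus strand and the others on the plus strand: Larp4 on the same chromosome at chr15:99970065-100016358, Pabpc4 at chr4:123262351-123298925, Pabpn1 at chr14:54892500-54898169, Larp4b at chr13:9093881-9174451, Paip1 at chr13:119428601-119458218, Larp1 at chr11:58009064-58062034 and Eif4g1 at chr16:20668313-20692884. Among the counted features, exons of the antisense gene 2310068J16Rik overlap those of Larp4. Whether reads were counted by strand is not given in the sources used here. Pabpc1 has close retrocopies in mammalian genomes, and how reads shared with them were counted is not stated, so its level is uncertain to that extent.

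RefSeq promoter windows (GRCm38.p6, 250 bases before and 50 after the transcription start) were at hand for 7 of the 9 genes, in 8 entries. Sequences of 3 genes are shown, all read on the plus strand: those of Eif4g1 because its level differed most between the lines, and those of Pabpc4 and Pabpn1 because they show features that belong to poly(A)-binding protein genes. The windows of these 3 genes lie inside the GENCODE bounds given above, downstream of the first base of the gene. Start below means the start of the RefSeq entry, and which start the cells use was not measured. Searched on both strands, which are the same for this palindrome, CACGTG (an E-box) occurred 2 times in the Eif4g1 window and in no other of the 8 entries. At least 1 copy was in 7.15% of the 32851 windows of the table and at least 2 copies in 0.594%. The Eif4g1 copies lie at chr16:20672661-20672690 and chr16:20672730-20672759, windows of 30 bases that begin at -66 and 3 from the start, with CACGTG in capitals:
Eif4g1, upstream copy: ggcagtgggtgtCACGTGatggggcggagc
Eif4g1, copy after the start: ctctgcgccggtCACGTGgggcgctggctg
The first 50 transcribed bases of the Pabpc4 entry were 74% A, against a median of 22% over all windows, and 2 of 32851 windows (0.00609%) reached that share. A-rich stretches in the leader of a poly(A)-binding protein's own mRNA are known from Pabpc1, where the protein binds its own message and lowers its translation. The 30 bases of Pabpc4 that are richest in A (23 of 30) lie at chr4:123282922-123282951, with runs of at least 4 A in capitals:
Pabpc4, start of the transcript: gAAAAAAAAAAgcAAAAgggAAAAAAAgaa
The coding sequence of Pabpn1 opens with 10 alanine codons in a row after the start codon, 7 of them GCG and 3 GCA. The homologous tract in the human gene is the one whose expansion causes oculopharyngeal muscular dystrophy. The codons lie at chr14:54894159-54894188, with GCG in capitals and GCA in lower case:
Pabpn1, codons after the start codon: GCGGCGGCGGCGGCGGCGgcagcagcaGCG
None of these letters was altered or measured in the libraries, and a match is not a site.

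All 9 genes were detected in all 4 classes, and together they gave 2869 and 2767 CPM in WT and KO ESCs and 2887 and 2812 CPM in EpiLCs. CPM was scaled to the UMIs of the class. Each captured molecule gives 1 UMI near its 3′ end whatever the length of the transcript, so that levels of different genes are compared without division by length. Pabpc1, the main cytoplasmic poly(A)-binding protein gene, led in every class with 1114 CPM (95% interval 1088 to 1141, exact Poisson, counting error only) in WT ESCs, 1125 CPM (1116 to 1135) in KO ESCs, 1036 CPM (1011 to 1062) in WT EpiLCs and 1099 CPM (1091 to 1108) in KO EpiLCs. Among all genes it ranked between 135 and 145. Its highest class was 1.09-fold above its lowest, the narrowest range of the 9 genes.

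Pabpn1, whose protein binds the growing tail in the nucleus and sets its length, came second in 3 classes, with 466 CPM (449 to 483) and 458 CPM (452 to 465) in WT and KO ESCs and 574 CPM (555 to 593) and 564 CPM (558 to 570) in EpiLCs. The intervals of the lines overlapped at each stage, and those of the stages did not. Eif4g1 gave 505 CPM (488 to 523) in WT ESCs, where it came second, and 361 CPM (355 to 366) in KO ESCs. In EpiLCs it gave 425 CPM (409 to 441) and 319 CPM (315 to 324), and no interval of the 4 classes overlapped another. Paip2, which takes Pabpc1 off the tail and holds translation back, lay between these and the genes described next in every class (chr18:35598617-35617187, plus strand, where Slc23a1 overlaps it on the other strand without overlap of exons). It gave 212 CPM (201 to 224) and 213 CPM (208 to 217) in WT and KO ESCs and 262 CPM (249 to 275) and 255 CPM (251 to 259) in EpiLCs.

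Larp1, Larp4 and Pabpc4 lay close together between 117 and 194 CPM, and their order changed with the class. In WT ESCs the intervals of neighbours in this order overlapped: Pabpc4 (154 CPM), Larp4 (153 CPM) and Larp1 (150 CPM). KO ESCs gave 171 CPM of Larp4 and 166 CPM of Larp1, which overlapped, and 147 CPM of Pabpc4. In WT EpiLCs all 3 were apart, at 194 CPM for Larp1, 161 CPM for Pabpc4 and 117 CPM for Larp4. KO EpiLCs gave 187 CPM of Larp1, then 140 CPM of Pabpc4 and 137 CPM of Larp4, which overlapped. Larp1 binds the cap and leader of mRNAs that encode the translation machinery, Larp4 binds poly(A) together with Pabpc1 and protects tails, and Pabpc4 is a second cytoplasmic poly(A)-binding protein. Larp4b, a relative of Larp4, lay at 75.6 and 83.5 CPM in the WT and KO ESCs and at 82.0 and 79.5 CPM in the EpiLCs. Paip1, which joins Pabpc1 to the initiation machinery and favours translation, was the lowest of the 9, with 38.8 CPM (34.1 to 44.1) and 42.2 CPM (40.3 to 44.2) in ESCs and 35.9 CPM (31.3 to 40.9) and 30.9 CPM (29.5 to 32.4) in EpiLCs.

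**Figure D1:**
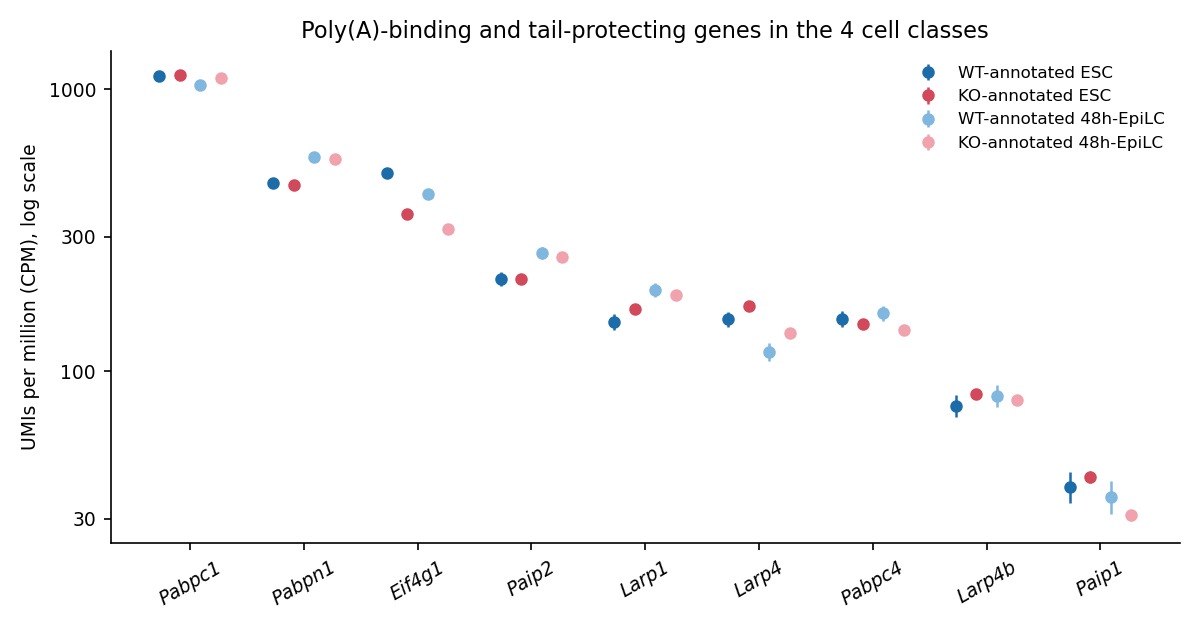
Levels of the 9 genes (CPM, log scale) in WT and KO ESCs and EpiLCs, with points for class values and bars for exact 95% Poisson intervals (counting error only; many are smaller than the points). Pabpc1 stays between 1036 and 1125 CPM, whereas Eif4g1 goes from 505 CPM in WT ESCs to 319 CPM in KO EpiLCs.

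The ratio of opposing partners was followed next, within each class. Paip2 exceeded Paip1 in all 4 classes, by 5.47-fold (95% interval 4.76 to 6.30, exact binomial, counting error only) in WT ESCs and 5.03-fold (4.79 to 5.29) in KO ESCs. In EpiLCs it exceeded Paip1 by 7.30-fold (6.35 to 8.44) and 8.23-fold (7.84 to 8.65), and the intervals of the stages did not overlap in either line. Pabpc1 exceeded Eif4g1, its partner in the closed loop, by 2.20-fold (2.11 to 2.30) in WT and 3.12-fold (3.06 to 3.18) in KO ESCs, and by 2.44-fold (2.33 to 2.55) and 3.44-fold (3.39 to 3.50) in EpiLCs. Thus there was more Pabpc1 RNA per Eif4g1 RNA in KO cells at both stages. Pabpc1 over Pabpc4 was between 6.45 and 7.84. Pabpc1 over Paip2 was 5.25 and 5.29 in WT and KO ESCs and lower in EpiLCs, at 3.96 and 4.32. Larp4 over Larp4b was 2.02 and 2.04 in ESCs, 1.43 in WT and 1.72 in KO EpiLCs. These ratios of 2 genes of the same cells do not depend on how classes are scaled.

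To see what differed with the line, KO cells were compared with WT cells within each library. Eif4g1 was the only one of the 9 genes to differ by at least 1.2-fold, and it was lower in KO cells at both stages. Its log2 ratio was -0.49 (95% interval -0.54 to -0.43, exact binomial, counting error only) in ESCs, a fold of 0.714, and -0.41 (-0.47 to -0.35) in EpiLCs, a fold of 0.751. Thus 1 of 9 genes was lower by at least 1.2-fold at each stage, against 16.1% of 9277 measured genes in ESCs and 15.4% of 9385 in EpiLCs. None of the 9 was higher by that fold, against 36.2% of genes in ESCs and 28% in EpiLCs. Measured genes are those with a mean of at least 5 CPM in the 2 classes. Of all measured genes, 7.72% had a lower ratio than Eif4g1 in ESCs and 8.98% in EpiLCs, so that a difference of this size was not rare. The median log2 ratio was 0.01 for the 9 genes and 0.13 for all measured genes in ESCs, and -0.05 and 0.08 in EpiLCs. Scaling by trimmed means (TMM) or by medians of ratios lowered the all-gene median in ESCs by 0.10 and 0.13. The share of genes higher and lower by 1.2-fold was then 27.6% and 22.4% with TMM and 25.4% and 24.5% with medians of ratios, and in EpiLCs 22.2% and 19.4% with medians of ratios.

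The other 8 genes differed less. Larp4 was higher in KO cells at both stages, with log2 ratios of 0.16 (0.06 to 0.26) in ESCs and 0.23 (0.12 to 0.34) in EpiLCs, and kept this sign under every scaling, down to 0.03 in ESCs with medians of ratios. Against the all-gene median its excess was 0.03 in ESCs and 0.15 in EpiLCs. Pabpc4 was lower, with -0.07 (-0.16 to 0.03) in ESCs and -0.20 (-0.29 to -0.10) in EpiLCs. The log2 ratios of Pabpn1 (-0.02 at both stages) and Paip2 (0.00 and -0.04) had intervals that included 0. The sign of Paip2 in ESCs changed in 6 of 14 alternatives, which varied the scaling, the cells kept or the KO rule. Pabpc1 gave 0.01 (-0.02 to 0.05) in ESCs, where TMM and medians of ratios turned the sign, and 0.08 (0.05 to 0.12) in EpiLCs. The latter was 0.008 above the all-gene median, and it fell to 0.037 with TMM and 0.023 with medians of ratios. Larp4b gave 0.14 (0.00 to 0.29) in ESCs, 0.01 above the all-gene median, and -0.05 (-0.18 to 0.09) in EpiLCs.

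Whether the line difference was the same at the 2 stages was read from the difference of the log2 ratios, EpiLCs minus ESCs. Its interval excluded 0 for 3 genes, but only for Larp1 did it do so under all 14 alternatives of scaling, cells and line rule as well. Larp1 gave 0.15 (0.05 to 0.25) in ESCs and -0.05 (-0.14 to 0.03) in EpiLCs, a difference of -0.20 (-0.33 to -0.07). For Paip1 the values were 0.12 (-0.07 to 0.32) and -0.21 (-0.41 to -0.01), a difference of -0.33 (-0.61 to -0.06). Medians of ratios turned the ESC value of Paip1 to -0.01, and the interval of its difference included 0 in 4 of 14 alternatives. The difference for Pabpc1 was 0.07 (0.02 to 0.12), in the opposite direction, and lay between 0.043 without the deepest cells and 0.136 with medians of ratios, with an interval that included 0 in 2 of 14. For Eif4g1 the difference was 0.07 (-0.01 to 0.15), an interval that includes 0. It was 0.125 (0.04 to 0.21) with TMM and 0.139 (0.06 to 0.22) with medians of ratios. Its interval also excluded 0 with the mean of CPM per cell, with WT cells whatever their Y-linked UMIs and with lines from autosomal genes. The interval included 0 in 9 of 14 alternatives, so that the result depends on the scaling, the averaging over cells and the line rule. The intervals of Pabpc4 (-0.13, -0.27 to 0.00) and Larp4b (-0.19, -0.38 to 0.00) reached 0, and included it in 9 and 7 of 14. With no replicate libraries these differences were not tested.

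**Figure D2:**
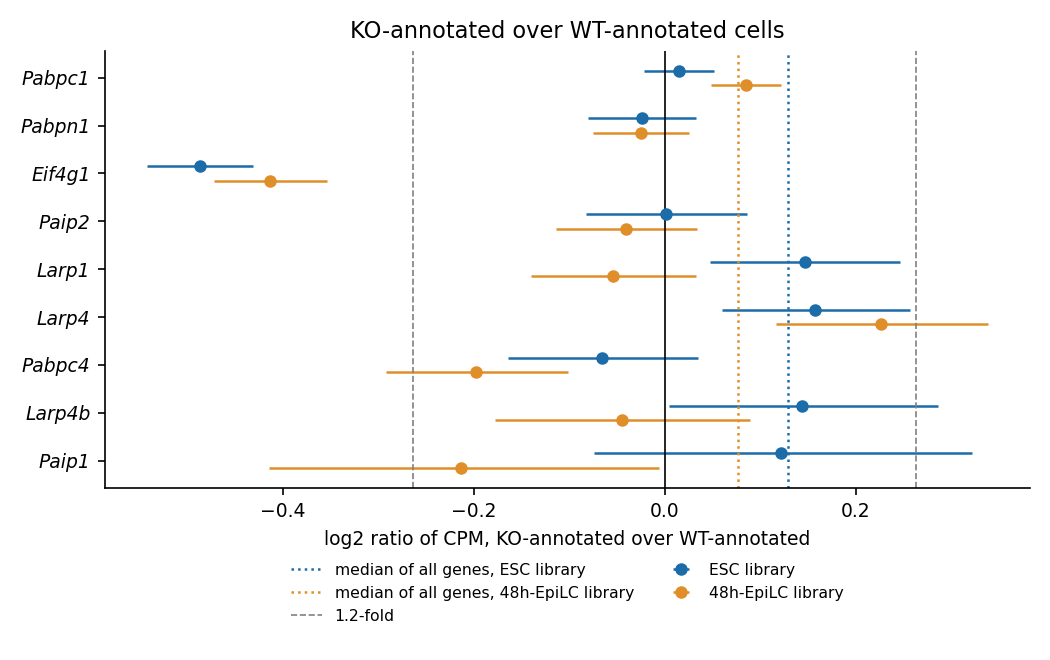
Log2 ratios of CPM of KO over WT cells (x axis) for the 9 genes in the ESC and 48h-EpiLC libraries, with exact 95% binomial intervals as bars, medians of all measured genes as dotted lines and 1.2-fold as dashed lines. Eif4g1 lies beyond 1.2-fold at both stages, at -0.49 and -0.41, and the point of no other gene does.

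Eif4g1 was then followed over cells grouped by the UMIs that mark the lines, cells of neither class included. The group with tdTomato is the WT class, and the groups with at least 2 Y-linked UMIs make up the KO class. Only the cells with neither mark or with 1 Y-linked UMI thus add to the comparison of the lines. In the ESC library it gave 505 CPM in the 435 cells with tdTomato and no Y-linked UMI, 421 CPM (416 to 426) in the 5321 cells with neither, and 362 CPM (355 to 369) in the 2238 cells with 1 Y-linked UMI. With 2, 3 and at least 4 Y-linked UMIs it gave 354, 360 and 372 CPM. The cells with neither mark, whose line is not given by these UMIs, thus lay between the 2 classes, and cells with a single Y-linked UMI lay with the KO cells. The order was alike in the 48h-EpiLC library, with 425 CPM in cells with tdTomato, 391 CPM (386 to 396) in those with neither, 336 CPM (330 to 343) with 1 Y-linked UMI, and 314, 321 and 324 CPM with 2, 3 and at least 4. Median depth moved with these groups, from 11090 UMIs in the cells with neither mark to 15587 in those with at least 4 Y-linked UMIs in ESCs, and from 14017 to 19908 in EpiLCs. Larp4 gave 153 CPM in cells with tdTomato, 147 CPM in cells with neither mark, 164 CPM with 1 Y-linked UMI and 177 CPM with at least 4 in ESCs, and 117, 119, 127 and 143 CPM in EpiLCs, so that it was higher in cells with Y-linked UMIs in both libraries. Whether depth had a part in this was not tested. For Pabpn1 the 6 groups lay between 455 and 466 CPM in ESCs and between 564 and 574 CPM in EpiLCs.

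**Figure D3:**
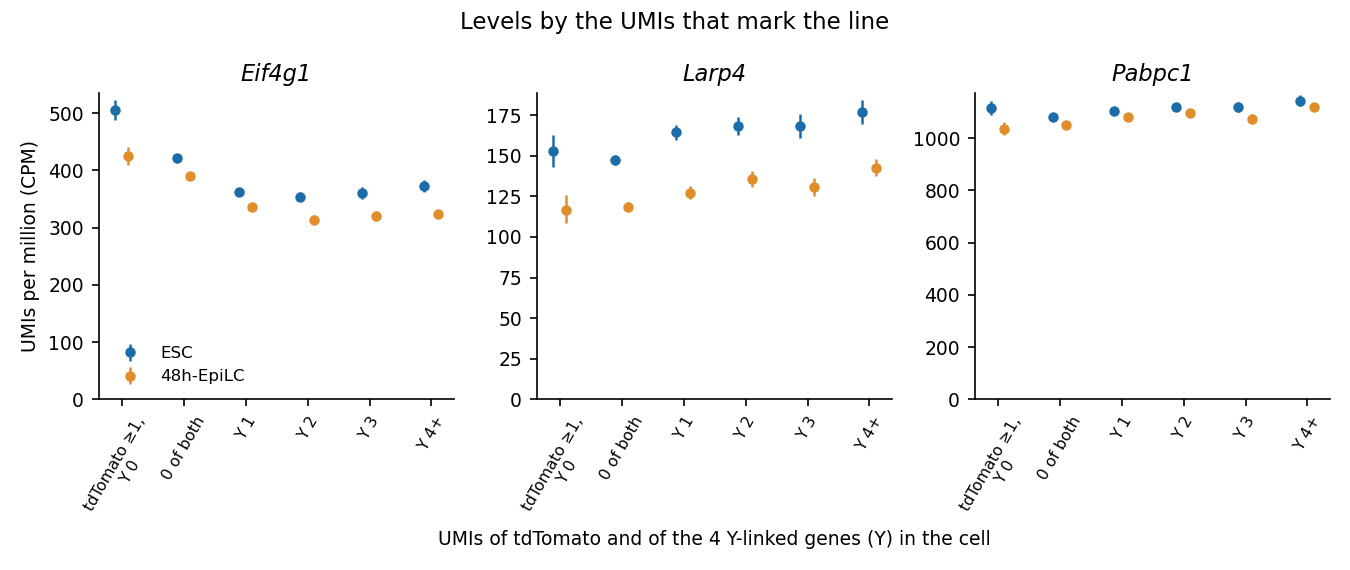
Levels of Eif4g1, Larp4 and Pabpc1 (CPM) in cells grouped by their UMIs of tdTomato and of the 4 Y-linked genes (Y), in the ESC and 48h-EpiLC libraries, with exact 95% Poisson intervals. Eif4g1 is highest in the cells with tdTomato (505 and 425 CPM) and lowest in cells with 2 Y-linked UMIs (354 and 314 CPM).

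Lines were also read from autosomal genes, which is no independent check, as the genes were picked from these same data. Ipp, Dera and Slc25a13 were taken because earlier results of these data had shown that they separate the lines, and this alternative was chosen after seeing the data. Cells with no Ipp UMI and at least 2 UMIs of Dera and Slc25a13 (1383 ESCs and 1297 EpiLCs) stood for WT, and cells with Ipp and none of the other 2 (3156 and 2963) stood for KO. These WT and KO groups held 13.3 and 124 CPM of Y-linked RNA in ESCs, so that the groups were mixed to some extent. With them the log2 ratio of Eif4g1 was -0.43 in ESCs and -0.37 in EpiLCs, and that of Larp4 was 0.26 at both stages. Leaving out cells with at least 5 UMIs of the feeder or the primitive endoderm markers or at least 3 of the 2-cell-like markers kept 424 of 435 WT and 2826 of 2978 KO ESCs, and gave Eif4g1 ratios of -0.48 in ESCs and -0.41 in EpiLCs. Cells with fewer marker UMIs stayed in, and their part in the difference was not tested.

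The lower level of Eif4g1 was also read per cell, as the share of cells with a UMI and the UMIs per cell. Each cell was thinned to 5000 UMIs, which left out 1 WT and 23 KO ESCs and 1 and 9 EpiLCs as too shallow. At this depth 91.2% of WT ESCs (88.2 to 93.7, exact binomial, counting error only) and 81.3% of KO ESCs (79.9 to 82.7) held at least 1 Eif4g1 UMI, with means of 2.51 and 1.75 UMIs per cell. In EpiLCs the shares were 84.2% (80.1 to 87.8) and 78.2% (76.6 to 79.6), with means of 2.09 and 1.58 UMIs. At full depth the shares were 99.3% and 97.0% in ESCs and 98.9% and 98.6% in EpiLCs. As the protein is needed for translation in general, no cell type that should lack the gene was at hand, and the share that free RNA gives could not be read. The most common number was 2 UMIs in WT ESCs (24.2% of cells) and 1 UMI in KO ESCs (29.6%). Cells with 3 and 4 UMIs made up 15.4% and 18.2% of WT ESCs and 14.1% and 7.07% of KO ESCs. In EpiLCs the most common number was 1 UMI in both lines (24.8% of WT and 31.6% of KO cells). There, 23.7% of WT and 24.9% of KO cells held 2 UMIs, and 11.7% and 5.22% held 4. The variance over the mean (Fano factor) of Eif4g1 was 1.11 and 1.09 in WT and KO ESCs and 1.22 and 1.06 in EpiLCs. The median over genes was 1.03 to 1.04 in the 4 classes, and Zfp42, a naïve marker that varies between ESCs, gave 1.30 and 1.69 in ESCs. Over the 9 genes and 4 classes the Fano factor lay between 0.909, for Larp4b in WT EpiLCs, and 1.22.

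**Figure D4:**
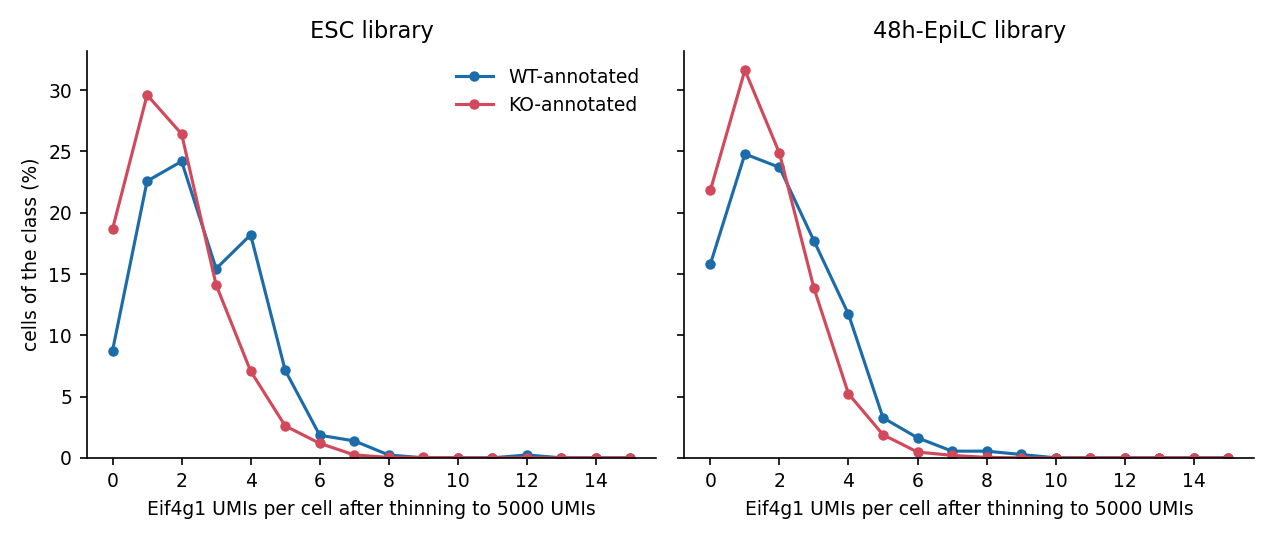
Share of cells (%) by the number of Eif4g1 UMIs per cell after thinning to 5000 UMIs, for WT and KO cells of each library. Cells with no Eif4g1 UMI make up 8.76% of WT and 18.7% of KO ESCs, and 15.8% of WT and 21.8% of KO EpiLCs.

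The stages were compared within each line. In WT cells, Larp1 (log2 ratio 0.37, 0.25 to 0.50), Paip2 (0.30, 0.20 to 0.41) and Pabpn1 (0.30, 0.23 to 0.37) were higher by at least 1.2-fold in EpiLCs than in ESCs, and Larp4 was lower (-0.39, -0.53 to -0.25). These were 3 of 9 genes higher, against 31.7% of all measured genes, and 1 of 9 lower, against 27.1%, so that the shares lay near those of all genes or below them. In KO cells, Pabpn1 (0.30, 0.27 to 0.32) was higher by that fold, which is 1 of 9 against 25.1%, and Paip1 (-0.45, -0.54 to -0.36) and Larp4 (-0.32, -0.36 to -0.27) were lower, which is 2 of 9 against 28.3%. Eif4g1 was lower in EpiLCs in both lines, with -0.25 (-0.33 to -0.18) in WT and -0.18 (-0.21 to -0.15) in KO cells, short of 1.2-fold, though in WT cells past it in 3 of 14 alternatives. The median log2 ratio of the 9 genes was 0.06 in WT and -0.07 in KO cells, and that of all measured genes 0.03 and -0.02.

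Pabpn1 had the same ratio in both lines (0.30), and Paip2 nearly so, with 0.26 (0.22 to 0.30) in KO cells. For Larp1 the ratio was 0.17 (0.13 to 0.21) in KO cells, below that of WT cells beyond counting error. Paip1 gave -0.12 (-0.38 to 0.15) in WT cells, where 223 and 239 UMIs limit the precision. Lines read from the autosomal genes gave 0.15 for Paip1 in WT and -0.38 in KO cells, so that its direction in WT cells was not settled. Pabpc1 was slightly lower in EpiLCs, with -0.10 (-0.15 to -0.06) in WT and -0.03 (-0.05 to -0.02) in KO cells, and TMM scaling turned the latter to 0.01. Pabpc4 and Larp4b lay within 0.12 of 0 on the log2 scale in both lines.

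**Figure D5:**
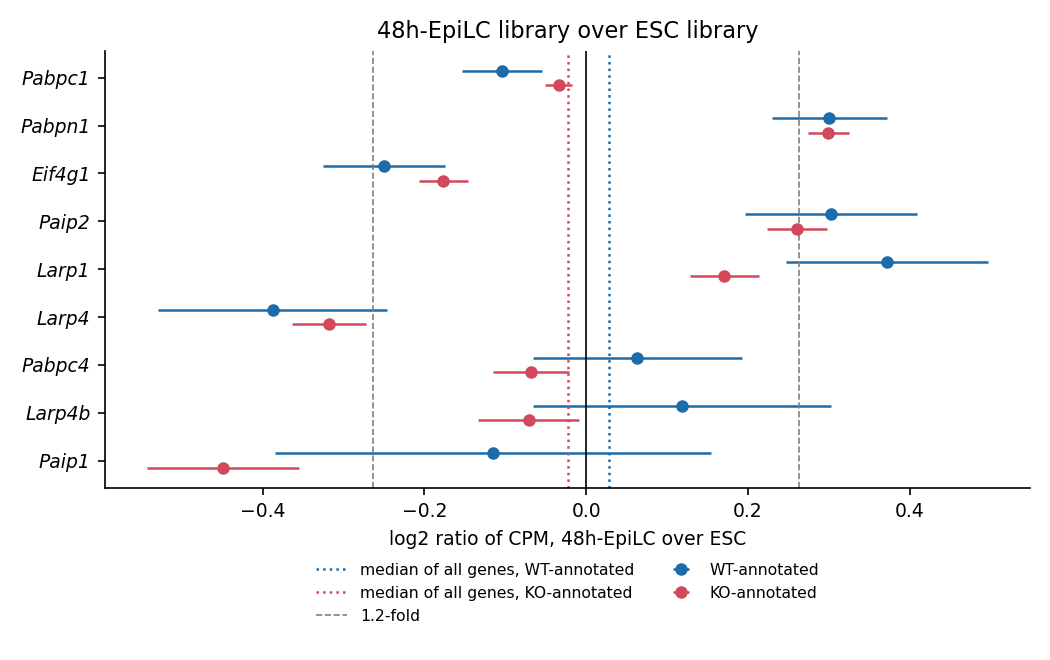
Log2 ratios of CPM of the 48h-EpiLC over the ESC library (x axis) for the 9 genes in WT and KO cells, with exact 95% binomial intervals as bars, medians of all measured genes as dotted lines and 1.2-fold as dashed lines. Pabpn1 lies at 0.30 in both lines, Larp4 at -0.39 and -0.32, and Paip1 at -0.12 and -0.45.

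The ESC library also held cells of other kinds. The 117 cells with at least 10 UMIs of the feeder fibroblast markers and the 110 with at least 10 UMIs of the primitive endoderm markers were set against the 8454 cells with no UMI of either list. The thresholds were set after the counts had been seen, and 66 and 108 cells with 5 to 9 UMIs lay just below them. In the feeder-marker cells Larp4 was at 79.2 CPM against 159 CPM (log2 ratio -1.003, -1.23 to -0.78) and Pabpc4 at 81.2 against 147 CPM (-0.85, -1.08 to -0.63). Pabpn1 (-0.57, -0.69 to -0.46), Larp1 (-0.52, -0.71 to -0.33), Pabpc1 (-0.46, -0.53 to -0.39) and Eif4g1 (-0.27, -0.38 to -0.16) were lower as well. Paip1, Paip2 and Larp4b had intervals that included 0. These cells still gave 23.9 CPM of Pou5f1, a core pluripotency factor, against 83.1 CPM in the cells without markers. In the endoderm-marker cells Larp4b (0.34, 0.10 to 0.57), Pabpc4 (0.33, 0.16 to 0.50), Larp1 (0.29, 0.12 to 0.46) and Pabpc1 (0.10, 0.03 to 0.16) were higher and Paip2 was lower (-0.29, -0.46 to -0.12), while Eif4g1 (-0.03, -0.15 to 0.08) and Pabpn1 (-0.01, -0.11 to 0.10) were near 0. The intervals of Paip1 and Larp4 included 0.

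A list of 48 other genes of the tail and the closed loop was set beside the 9, and 36 of them were measured. In ESCs, 14 of the 36 were higher by at least 1.2-fold in KO cells, against 36.2% of all measured genes, and 4 were lower, against 16.1%, with a median log2 ratio of 0.09 against 0.13 for all genes. In EpiLCs 7 were higher, against 28% of all genes, and 5 lower, against 15.4%, with a median of 0.01 against 0.08. Gspt1, the termination factor eRF3a, which binds Pabpc1, was lower in KO cells at both stages (-0.42, -0.47 to -0.36, and -0.46, -0.52 to -0.41). It is 1 of 12 measured genes listed as partners of poly(A)-binding proteins. Of these 12, 6 were higher and 2 lower in KO ESCs, and 3 higher and 2 lower in KO EpiLCs. Usp10 (0.67 in ESCs and 0.29 in EpiLCs) and Tnrc6b (0.42 and 0.34) were higher by at least 1.2-fold at both stages. Atxn2l gave 0.52 in ESCs and 0.24 in EpiLCs, the latter short of that fold. Eif4a2, a helicase that binds Eif4g1, was lower too (-0.47 in ESCs and -0.36 in EpiLCs), as was Eif4ebp2, which keeps Eif4e from Eif4g1 (-0.55 and -0.39). In all, 11 initiation partners were measured, of which 2 were higher and 2 lower in KO ESCs, and 2 higher and 3 lower in KO EpiLCs. Eif4g3, the other scaffold that binds Eif4e, was low, with 4.55 and 6.21 CPM in WT and KO ESCs and 19.5 and 14.2 CPM in EpiLCs, and its log2 ratios were 0.45 and -0.46. Its ESC values lay near the limit of 5 CPM for measured genes, and no interval was computed for these ratios. Eif4b, which stimulates the helicase, was higher at both stages (0.37 and 0.27), and Eif4ebp3, a further protein that binds Eif4e, was higher in EpiLCs (0.28). The ratios of Eif4e were 0.06 and 0.01, those of Eif4a1 0.01 and -0.08, and those of Eif4g2, a relative of Eif4g1 that does not bind Eif4e, 0.19 and 0.15. Of 8 measured polymerases and terminal transferases, 5 were higher in KO ESCs (against the 36.2% of all genes) and 1 in KO EpiLCs (against 28%), and none was lower by that fold (against 16.1% and 15.4%). Tent4b, a non-canonical poly(A) polymerase, had the highest ratio in ESCs among those of the list with a mean of at least 20 CPM (0.75, 0.49 to 1.03), and Mtpap, the mitochondrial poly(A) polymerase, in EpiLCs (0.49, 0.25 to 0.75). Tob1, which joins Pabpc1 to the deadenylases of Ccr4-Not, lay at 12.5 and 17.1 CPM in WT and KO ESCs and at 16.1 and 15.2 CPM in EpiLCs.

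Between the stages 7 of the 36 genes were higher and 6 lower in WT cells, against 31.7% and 27.1% of all measured genes. In KO cells 6 were higher and 6 lower, against 25.1% and 28.3%. These shares lay below those of all genes. Tut4, a terminal uridyltransferase that marks RNAs with short tails, was higher in EpiLCs in both lines (0.52 and 0.44). Eif4e2, a cap-binding protein that represses translation, was lower in both lines (-0.51 in WT and -0.32 in KO cells). Atxn2l, a relative of ataxin-2, gave -0.19 in WT and -0.48 in KO cells, the latter past 1.2-fold. Ribosomal protein genes, whose mRNAs Larp1 binds, took 22.3% and 20.7% of UMIs in WT and KO ESCs and 24.0% and 21.8% in EpiLCs, with median log2 ratios between stages of 0.12 in WT and 0.09 in KO cells.

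The genes whose pattern lay nearest to that of each of the 6 genes that spanned at least 0.3 on the log2 scale were found among 5572 genes with a mean of at least 20 CPM, by the Euclidean distance of log2 CPM centred over the 4 classes. Near Eif4g1 (span 0.66) were Ubac2, Mbtd1 and Rsbn1, at distances of 0.02 to 0.04. Mbtd1, for example, gave 79.0 and 56.9 CPM in WT and KO ESCs and 64.8 and 49.4 CPM in EpiLCs. Near Larp4 (span 0.54) were Coro1c, Krr1 and Orc2, near Paip1 (span 0.45) Sec11c, Tgoln1 and Ipo11, and near Larp1 (span 0.37) Cbl, Gnai3 and Rpf2. Pabpn1 and Paip2 had the ribosomal protein gene Rpl10 in common among their nearest genes, beside Rbm34 and Blmh for Pabpn1 and Snx8 and Tatdn1 for Paip2. A distance over 4 classes is a description only, as many genes differ between lines and stages.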

How the data were processed

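Droplet libraries of ESCs and of 48h-EpiLCs were analysed, each a mixture of WT and KO cells (144584246 and 163771168 UMIs over all barcodes). The deposited values were whole-number UMI counts, with genes in rows and barcodes in columns. The authors had aligned and counted the reads by Cell Ranger (3.0.2, default parameters) against mm10 extended by the tdTomato coding sequence. The authors used Seurat (version 4) afterwards, and its output was not used here. No column of the authors' comparisons was used.

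Counts of the kept cells were summed per class and scaled to CPM. As cells of 1 library are no replicates of it, no test was made. Intervals are exact Poisson (CPM) and exact binomial, conditional on the sum of both counts (ratios). They hold at 95% and cover counting error only. The interval of a difference of 2 log2 ratios used a normal approximation on the counts. All-gene medians and shares used genes with a mean of at least 5 CPM, and called means a ratio of at least 1.2-fold. Thinning to 5000 UMIs per cell was a single random draw. No doublet caller was run. Cells with tdTomato and Y-linked UMIs were left out of both classes, and leaving out the 10% of cells with most UMIs was an alternative. The named genes were the 9 members, Cnot8, Tob1, the pathway list by its counts and largest ratios, and the 3 nearest genes by pattern. Eif4e, Eif4a1, Eif4b, Eif4g2, Eif4g3 and Eif4ebp3 were named after their values were seen, as initiation partners. The members, lists and line rule were chosen with earlier results of these data known. Gene positions came from GENCODE M21, in which 99.6% of features were found by identifier. Functions were tested on simulated counts with known folds. Analyses used Python 3.11.15, NumPy 2.4.6, SciPy 1.17.1 and edgeR 4.0.16 (TMM factors only).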

Additional observations from a re-analysis of the deposited data

How the results depend on the processing

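Each comparison was run under 14 alternatives, of which the lines from autosomal genes were added after seeing the data. Over the 9 genes and 4 comparisons, 462 of 504 values stayed within the main 95% counting interval, 42 moved out of it, and no ratio of at least 1.2-fold changed sign. The log2 ratio of Eif4g1 between the lines went from -0.61 to -0.43 in ESCs and from -0.47 to -0.34 in 48h-EpiLCs, and stayed past 1.2-fold under all 14. The median log2 ratio of the 9 genes between the lines in ESCs (0.01) was -0.084 with TMM scaling, -0.113 with medians of ratios, 0.083 with cells thinned to 5000 UMIs and 0.051 without the 10% of cells with most UMIs. The median between the stages in KO cells (-0.07) was -0.016 with thinned cells. The first pair of settings rescales all genes alike, and for the others the cause was not tested. Near the 1.2-fold line, Larp4 in 48h-EpiLCs passed it between the lines in 3 alternatives (up to 0.34 without the deepest cells), Larp1 and Larp4 in ESCs with thinned cells (0.31 and 0.27), Paip1 in 48h-EpiLCs with autosomal lines (-0.31) and with medians of ratios (-0.28), and Paip2 between the stages in KO cells in 7 of 14. Between the stages in WT cells, Pabpn1 was short of it with medians of ratios (0.24) and with thinned cells (0.23), and Paip2 with medians of ratios (0.25) and with autosomal lines (0.24), and Larp4b passed it with thinned cells (0.33). No paired analysis was possible because there is 1 library per stage and the labels give no replicate numbers. Depth limits Paip1 most, with 223 to 239 UMIs in the WT classes.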
